A study of Rattus norvegicus with 18 samples.

Results

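The genes described here encode the voltage-gated sodium channels, the voltage-gated calcium channels and the HCN channels of the rat hippocampus, with their auxiliary subunits. Members were chosen by gene symbol, as every gene whose symbol begins with Scn and a digit, with Cacna, Cacnb or Cacng, or with Hcn and a digit, and Scn7a was left out. Of 12331 genes with a tested probe on the array, 40 were members. Of the 43 genes on the list of roles used here, Cacna2d4, Cacng2 and Cacng3 were not measured by a probe named in this way. The brightest probe stood for each gene, 37 members were named by the platform annotation and 3 through the RefSeq accession of their probe.

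Hippocampal RNA of 18 male adult Wistar rats was measured, each rat on its own one-color CodeLink array. In 3 groups of 5 rats, status epilepticus (SE) had been induced by an intraperitoneal injection of pilocarpine after pre-treatment with scopolamine methylnitrate, and was blocked with diazepam. They were examined 3 days after SE (D3), 7 days after SE (D7) and soon after the first spontaneous seizure (Chronic). The Control group comprised 3 saline-treated rats, 1 for each of those times, which had received saline alone, so that scopolamine, pilocarpine, SE and diazepam cannot be told apart in any comparison with Control. Replicates are separate rats per the labels, which number them 11 to 15 at D3, 31 to 35 at D7, 41 to 45 in Chronic and 26, 36 and 47 in Control. Control replicate 26 belongs to day 3, replicate 36 to day 7 and replicate 47 to the time of the first seizure. Pilocarpine SE is a model of temporal lobe epilepsy in which whole hippocampi were taken, with no dissection of its fields.

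Sodium channels carry the rising phase of the action potential, and their alpha subunit forms the pore while the beta subunits tune gating and place the channel in the membrane. Calcium channels turn depolarization into calcium entry, which drives transmitter release at terminals (P/Q-type and N-type), gene regulation and dendritic signals (L-type) and burst firing near rest (T-type), with alpha2delta and beta subunits that bring the pore to the surface. HCN channels open on hyperpolarization and set the resting conductance and the integration of inputs in the dendrites of hippocampal pyramidal cells. Mutations in several of these genes cause inherited epilepsies, and several antiepileptic drugs act on their products.

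All values of single arrays below are log2 normalized intensities, and they can be compared between arrays for 1 probe but not between probes. The authors' software flagged spots G (good) or L (low signal), and spots with another flag were left out. Among the 40 members, 25 were flagged G on all 18 arrays, 34 on at least 15 and 37 on at least 3. Cacna1s was flagged L on all arrays and Cacng4 was flagged G on 2 arrays, so no fold is given for either gene. The share of spots flagged G lay between 66.0% and 76.0% over the arrays. A probe was called where limma gave an adjusted p under 0.05 over all 33800 probes, and no minimum fold was asked unless stated.

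Many channel genes were lower in the hippocampus after SE than in Control, at every stage and by less than 2-fold. At D3, 15 of the 40 members (37.5%) were called lower, against 14.2% of all probes. At D7 there were 14 (35%), against 11.9% of all probes, and in Chronic 8 (20%), against 9.8%. Over the brightest probe of each of the 12331 genes, as used for the members, the shares called lower were 16.5%, 15.5% and 12.7%. No member was called higher, while 7.91%, 6.2% and 4.86% of all probes were higher at D3, D7 and Chronic. Scn7a, which has a symbol of the same form but was left out of the members, was called higher at all 3 stages (by 3.00, 2.78 and 3.28). At an unadjusted p under 0.05 limma gave 1 higher member at D3 (Cacng4, named after its values were seen and flagged L in all Control arrays) and none later, where 11.7%, 11.3% and 9.86% of all probes were higher, and the methods' t-test also gave 1, 0 and 0, where 12.5%, 9.07% and 8.32% of all probes were. After Benjamini-Hochberg adjustment the t-test called 18 members lower at D3, none at D7 and 4 in Chronic, against 17.0%, 0.763% and 3.23% of all probes, so the D7 calls rest on limma. It called none higher, against 8.29%, 0.42% and 1.6%. No member was called lower by at least 2-fold either, by limma or by the t-test, where 1.17%, 0.432% and 0.612% of all probes were. The median log2 fold change of the members was -0.42 at D3, -0.41 at D7 and -0.33 in Chronic, beside -0.10, -0.12 and -0.12 over all genes. The estimate was below 0 for 35, 34 and 35 of the 40 members, and for 59.3%, 61.1% and 62.5% of all genes. These 3 comparisons share the same 3 Control arrays, and the counts depended on them. Without Control replicate 36, 4, 7 and 3 members were called at D3, D7 and Chronic, and 9, 7 and 5 without Control replicate 26. The shares of all probes in these fits are not given here, so fewer calls among the members cannot be told from fewer calls over all probes. Against the 1 time-matched Control array alone, the members' median was -0.34, -0.41 and -0.31 at D3, D7 and Chronic. Few of the calls were kept in that fit, where 1 array gives no spread of Control. In whole tissue, fewer cells of a type and less RNA per cell cannot be told apart.

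The lower values were also seen without any model. At D3, 23 members were lower on every array than on every Control array, against 22.7% of all probes. At D7 there were 15, against 16.8%, and in Chronic 18, against 16.4%. Over the brightest probe of each gene, 26.4%, 21.7% and 20.3% of all genes were lower in this way at D3, D7 and Chronic. No member lay above all Control arrays at any stage, where 10.9%, 7.88% and 6.94% of all probes did.

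Among the members, 6 were called lower at all 3 times: Scn2a, Scn3a, Scn11a, Cacna1f, Cacna1b and Cacnb1. Scn1a, Cacna1g, Cacna2d1, Cacna2d3 and Hcn4 were called at D3 and D7 alone, and Cacnb4 at D3 and Chronic. Scn3b, Scn4b and Cacng5 were called at D3 alone, Cacnb3 and Cacng6 at D7 alone, and no gene in Chronic alone. Members flagged G on at least 3 arrays and not called at any stage had estimates from -0.66 to 0.51 at D3, from -0.73 to 0.54 at D7 and from -0.59 to 0.37 in Chronic.

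**Figure D1:**
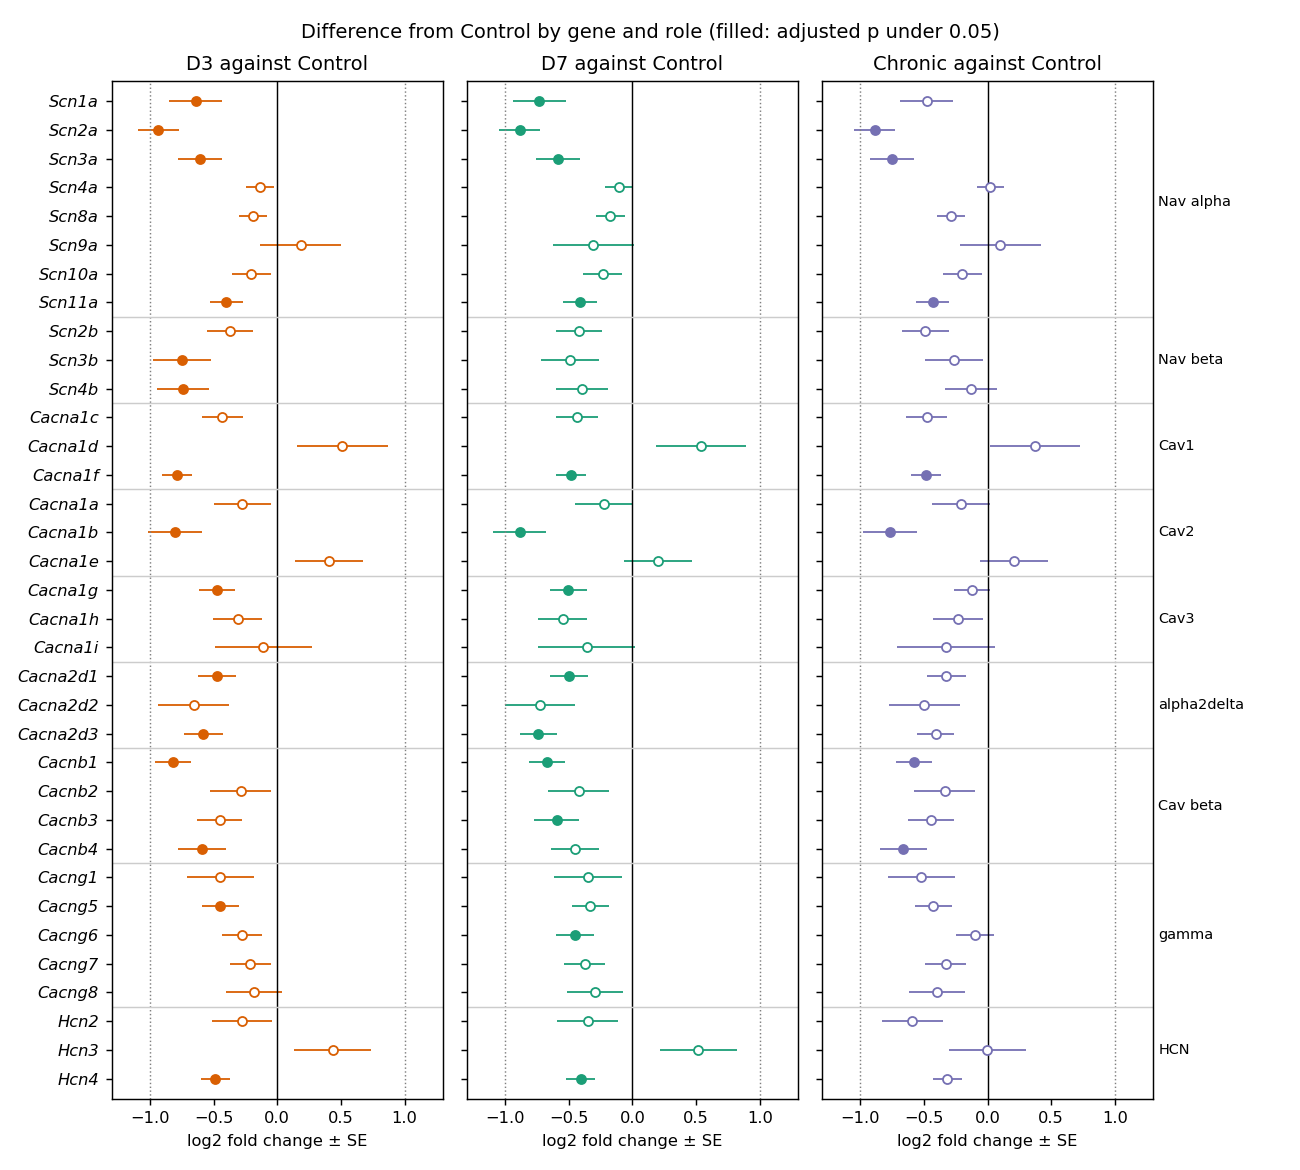
Log2 fold change against Control (x axis, with the standard error of the limma fit) of 35 members flagged G on at least 3 arrays (y axis, ordered by role), at D3, D7 and in Chronic; filled points had an adjusted p under 0.05 and dotted lines mark 2-fold. Most points lie left of 0 at every stage, all filled points do, and none reaches the 2-fold line.

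To show the regulatory sequence of members that were lower throughout, the 250 bases before the RefSeq start of Scn2a, Scn3a and Cacna1b are printed below, as the pore genes of brain neurons among the 6 called at all 3 times. The sequences are from RefSeq (GRCr8), 5′ to 3′ on the strand of the gene, and capitals mark matches to the motifs searched. They lie at chr3:70710706-70710955 on the plus strand for Scn2a, at chr3:70666199-70666448 on the minus strand for Scn3a and at chr3:27944286-27944535 on the minus strand for Cacna1b.
Scn2a: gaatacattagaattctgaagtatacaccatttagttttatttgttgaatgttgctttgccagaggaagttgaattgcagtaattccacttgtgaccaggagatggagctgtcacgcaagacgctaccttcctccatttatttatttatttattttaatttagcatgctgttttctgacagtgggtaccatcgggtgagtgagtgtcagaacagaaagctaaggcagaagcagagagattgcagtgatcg
Scn3a: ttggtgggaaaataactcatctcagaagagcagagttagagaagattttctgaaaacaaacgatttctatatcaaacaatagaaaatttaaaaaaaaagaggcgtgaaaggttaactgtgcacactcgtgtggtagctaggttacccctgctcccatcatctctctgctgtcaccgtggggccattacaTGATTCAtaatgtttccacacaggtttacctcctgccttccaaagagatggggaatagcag
Cacna1b: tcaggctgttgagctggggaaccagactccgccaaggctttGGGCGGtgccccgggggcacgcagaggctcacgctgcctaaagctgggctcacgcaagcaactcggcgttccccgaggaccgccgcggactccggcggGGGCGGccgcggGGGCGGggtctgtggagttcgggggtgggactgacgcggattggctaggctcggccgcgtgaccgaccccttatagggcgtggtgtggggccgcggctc
Both strands were searched for GGGCGG (the GC box), TGANTCA (a loose AP-1 pattern with any base at N), TGACGTCA (CRE) and the half-sites TTCAGCACC and GGACAGC of RE1, the element bound by the neuronal repressor REST. The Cacna1b sequence held 3 GC boxes, which 32.4% of 27457 promoters of this length held at least once. The Scn3a sequence held 1 match to the loose AP-1 pattern, as TGATTCA, and 6.36% of all promoters held a match with any base at N. The Scn2a sequence held none of the motifs. CRE was found in 1.7% of all promoters and the RE1 half-sites in 0.317% and 5.34%. Cacna1b had 28 CpG pairs and Scn2a and Scn3a had 4 each, beside a median of 6 over all promoters and 14 over the 25 members with a promoter in the table. A match is a description of these letters only.

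Of the 9 sodium channel alpha subunits, 4 fell at D3, 4 at D7 and 3 in Chronic, beside 16.5%, 15.5% and 12.7% of all genes. Scn2a, the channel of unmyelinated axons and of the axon initial segment of principal cells, was the clearest of these subunits. Its values were 4.79, 4.95 and 4.94 on the Control arrays, 3.78, 3.97, 4.04, 3.96 and 4.04 on the D3 arrays, 3.9998, 4.17, 3.36, 4.40 and 4.11 on the D7 arrays and 3.82, 4.17, 4.18, 4.02 and 3.84 on the Chronic arrays. All 15 pilocarpine arrays lay below all 3 Control arrays, and D7 replicate 33 was the lowest at 3.36. The log2 fold change was -0.93 ± 0.16 (SE) at D3 (adjusted p = 0.000578), -0.88 ± 0.16 at D7 (adjusted p = 0.00166) and -0.89 ± 0.16 in Chronic (adjusted p = 0.00234), so that the mean signal stood at 52.4%, 54.2% and 54.1% of Control. All 3 calls were kept without any single array and under quantile normalization.

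Scn3a, a sodium channel that is most abundant in the developing brain, fell as well. It read 2.95, 3.17 and 2.92 on the Control arrays, 2.32, 2.83, 2.21, 2.37 and 2.30 on the D3 arrays, 2.61, 2.64, 1.93, 2.84 and 2.12 on the D7 arrays and 2.37, 2.34, 2.32, 2.12 and 2.16 on the Chronic arrays. The groups did not overlap with Control, although D3 replicate 12 (2.83) and D7 replicate 34 (2.84) came close to it. Its log2 fold change was -0.60 ± 0.17 at D3 (adjusted p = 0.0166), -0.59 ± 0.17 at D7 (adjusted p = 0.0248) and -0.75 ± 0.17 in Chronic (adjusted p = 0.00838). Without Control replicate 36 none of these calls was kept (adjusted p = 0.0876, 0.118 and 0.0530), and that at D7 was also lost without D7 replicate 33 (0.0572), D7 replicate 35 (0.0566) or Control replicate 26 (0.0633). Under quantile normalization the calls at D3 and D7 were lost (adjusted p = 0.0581 and 0.119), and under 75th percentile scaling that at D7 (0.0613).

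Scn1a, the channel of fast-spiking interneurons whose loss causes Dravet syndrome, fell at D3 and D7. Its probe gave 2.43, 2.84 and 2.52 on the Control arrays, 1.87, 2.04, 1.86, 1.93 and 2.10 on the D3 arrays, 1.95, 2.57, 1.11, 2.00 and 1.72 on the D7 arrays and 2.15, 2.13, 2.46, 1.87 and 2.00 on the Chronic arrays. At D3 all arrays were below Control, while D7 replicate 32 (2.57) and Chronic replicate 43 (2.46) reached into the Control range. Log2 fold changes were -0.64 ± 0.21 (adjusted p = 0.0340), -0.73 ± 0.21 (adjusted p = 0.0224) and -0.48 ± 0.21 (adjusted p = 0.133). The D3 call was lost without D3 replicate 11, 13 or 14 or any single Control array (adjusted p from 0.0560 to 0.165) and the D7 call without Control replicate 36 (0.120), and both under quantile normalization (0.0694 and 0.0693).

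Scn8a, the main sodium channel of nodes of Ranvier and of the distal initial segment, did not pass the test at any stage. It read 1.77, 1.82 and 1.74 on the Control arrays, 1.71, 1.52, 1.55, 1.64 and 1.51 on the D3 arrays, 1.79, 1.66, 1.64, 1.55 and 1.38 on the D7 arrays and 1.27, 1.51, 1.56, 1.71 and 1.41 on the Chronic arrays. Arrays at D3 and in Chronic were all below Control by a narrow margin, and D7 overlapped with it. Relative to Control the estimated log2 difference was -0.19 ± 0.11, -0.17 ± 0.11 and -0.28 ± 0.11 at the 3 stages, with adjusted p of 0.240, 0.300 and 0.0880. Both other Scn8a probes were flagged G on 1 array each.

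Scn11a and Scn10a encode channels known from sensory neurons, and Scn4a that of skeletal muscle, yet their brightest probes were flagged G on all arrays. Scn11a was called lower at all stages, with estimates of -0.40 ± 0.13 (adjusted p = 0.0335), -0.41 ± 0.13 (0.0350) and -0.43 ± 0.13 (0.0331), and none of these calls was kept under quantile normalization, under 75th percentile scaling or without any single Control array. Scn10a had log2 fold changes of -0.20, -0.23 and -0.20, and Scn4a of -0.14, -0.11 and 0.02, none of them called. The probes of Scn4a disagreed, since the dimmer one fell at D3 (-0.65 ± 0.19, adjusted p = 0.0186) and D7 (-0.74 ± 0.19, adjusted p = 0.0121). Scn9a, flagged G on 17 arrays, had log2 fold changes of 0.19 ± 0.32, -0.31 ± 0.32 and 0.10 ± 0.32. Cross-hybridization between these related genes was not tested.

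Along rat chromosome 3 (RefSeq, GRCr8) the order is Scn3a, Scn2a, Scn1a, Scn9a and Scn7a. Scn9a, which was not called at any stage, lies between the genes that fell and Scn7a. Scn7a, a sodium sensor of glia and other non-neuronal cells that was left out by the rule, rose by 3.00 ± 0.37 at D3 (adjusted p = 3.28e-05), 2.78 ± 0.37 at D7 (adjusted p = 0.000142) and 3.28 ± 0.37 in Chronic (adjusted p = 6.53e-05).

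**Figure D2:**
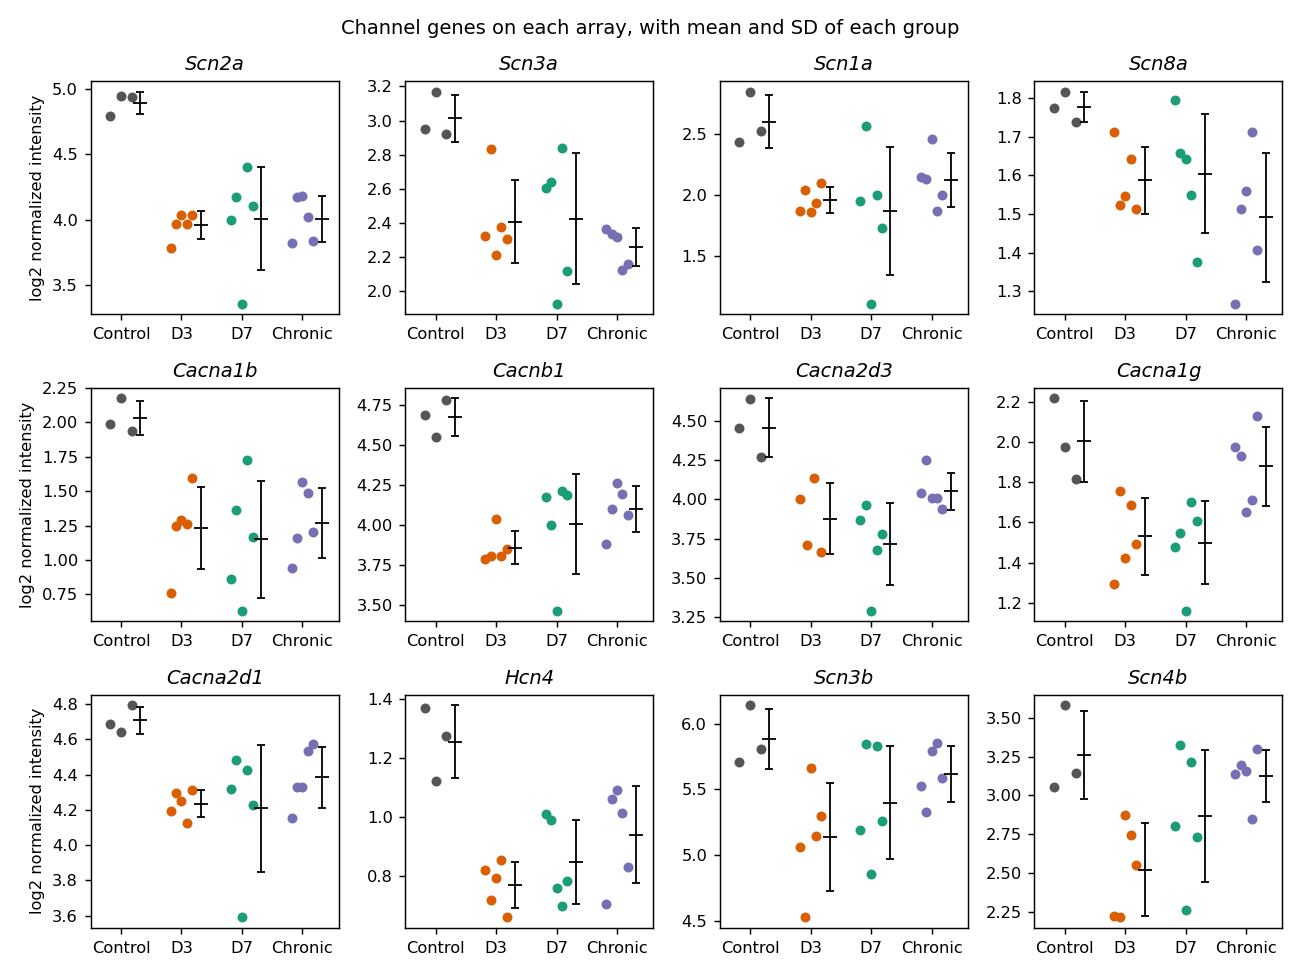
Log2 normalized intensity (y axis, with its own range in each panel) of 12 channel genes on every array of Control, D3, D7 and Chronic (x axis); each point is 1 array, and the bar gives the mean and SD of the group. Scn2a, Scn3a, Cacna1b, Cacnb1, Cacna2d1, Cacna2d3 and Hcn4 show no overlap with Control at any stage, and D7 replicate 33 is the lowest D7 array for each of these 7 genes but Hcn4.

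Among the sodium channel beta subunits, Scn3b and Scn4b were called at D3 and neither was called later. Scn3b, which encodes the beta3 subunit of the forebrain, gave 5.71, 6.14 and 5.80 on the Control arrays, 5.06, 4.53, 5.66, 5.14 and 5.29 on the D3 arrays, 5.19, 5.85, 4.86, 5.83 and 5.26 on the D7 arrays and 5.53, 5.33, 5.79, 5.85 and 5.59 on the Chronic arrays. All D3 arrays were below Control, whereas D7 and Chronic overlapped with it. The fitted log2 difference from Control was -0.75 ± 0.23 at D3 (adjusted p = 0.0232), -0.49 ± 0.23 at D7 (adjusted p = 0.146) and -0.27 ± 0.23 in Chronic (adjusted p = 0.476). The D3 call was lost without D3 replicate 12 (adjusted p = 0.0574), without Control replicate 36 (0.123) and under quantile normalization (0.133). Of the 2 other Scn3b probes, 1 gave -0.71 ± 0.24 (adjusted p = 0.0435) and 1 gave -0.14 ± 0.18 (adjusted p = 0.629) at D3.

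Scn4b, whose beta4 subunit is linked to resurgent sodium current, had the highest estimate of all members for Chronic over D3. Its probe read 3.05, 3.58 and 3.14 on the Control arrays, 2.22, 2.21, 2.88, 2.74 and 2.55 on the D3 arrays, 2.80, 3.32, 2.26, 3.22 and 2.73 on the D7 arrays and 3.14, 3.19, 3.15, 2.85 and 3.30 on the Chronic arrays. D3 lay wholly below Control, D7 was spread from 2.26 to 3.32, and Chronic overlapped with Control. Against Control the log2 fold change was -0.74 ± 0.20 at D3 (adjusted p = 0.0139), -0.39 ± 0.20 at D7 (adjusted p = 0.194) and -0.13 ± 0.20 in Chronic (adjusted p = 0.724). Chronic exceeded D3 by 0.61 ± 0.18, which did not pass over all probes (adjusted p = 0.0746), though it did under quantile normalization and 75th percentile scaling. Without Control replicate 36 the D3 call was lost (adjusted p = 0.1003). The second Scn4b probe gave -0.67 ± 0.19 at D3 (adjusted p = 0.0162). Scn2b, the beta2 gene, had -0.37, -0.42 and -0.49 and was not called.

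Of the 10 calcium channel pore genes, 3 fell at D3, the same 3 at D7 and 2 in Chronic, beside 16.5%, 15.5% and 12.7% of all genes. They were Cacna1f and Cacna1b at all 3 stages and Cacna1g at D3 and D7. Cacna1b, the N-type channel of presynaptic terminals, had the lowest estimate among them at each stage. It read 1.99, 2.17 and 1.94 on the Control arrays, 0.76, 1.25, 1.29, 1.26 and 1.60 on the D3 arrays, 0.86, 1.36, 0.63, 1.73 and 1.17 on the D7 arrays and 0.94, 1.16, 1.56, 1.49 and 1.20 on the Chronic arrays. No pilocarpine array reached Control, the nearest being D7 replicate 34 at 1.73. Its log2 difference from Control was -0.80 ± 0.21 at D3 (adjusted p = 0.00953), -0.89 ± 0.21 at D7 (adjusted p = 0.00807) and -0.77 ± 0.21 in Chronic (adjusted p = 0.0199). The D3 call was lost without Control replicate 36 (adjusted p = 0.0523) and the Chronic call without Control replicate 26 (0.0629) or 36 (0.0922), and all 3 were kept under quantile normalization.

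Cacna1a, the P/Q-type channel that carries most of the release at fast synapses, read 1.04, 1.16 and 0.85 on the Control arrays, 0.42, 0.28, 0.96, 0.96 and 1.10 on the D3 arrays, 0.57, 1.40, 0.32, 0.99 and 0.67 on the D7 arrays and 0.30, 0.91, 0.85, 1.04 and 0.96 on the Chronic arrays. Its groups all overlapped with Control, and the estimates of -0.27 ± 0.23, -0.23 ± 0.23 and -0.21 ± 0.23 did not pass (adjusted p = 0.433, 0.536 and 0.598). Cacna1e, the R-type channel, had log2 fold changes of 0.41 ± 0.27, 0.20 ± 0.27 and 0.21 ± 0.27 on a probe flagged G on 15 arrays.

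Among the L-type genes, Cacna1c, the main L-type channel of the hippocampus, came close to the threshold at each stage. It read 0.35, 0.45 and 0.70 on the Control arrays, -0.06, 0.17, 0.25, -0.15 and 0.15 on the D3 arrays, 0.22, 0.40, -0.17, -0.00 and -0.12 on the D7 arrays and -0.13, -0.32, 0.19, 0.24 and 0.14 on the Chronic arrays. D3 and Chronic lay below Control, and D7 replicate 32 (0.40) overlapped with it. The log2 fold changes of -0.43 ± 0.16, -0.44 ± 0.16 and -0.48 ± 0.16 had adjusted p of 0.0637, 0.0683 and 0.0536, and when only probes flagged G on at least 3 arrays were tested the gene was called at all 3 stages.

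Cacna1f is the L-type channel gene of the retina, and its probe, designed on a record other than a RefSeq transcript, gave 4.36, 4.24 and 4.54 on the Control arrays, 3.65, 3.42, 3.81, 3.53 and 3.54 on the D3 arrays, 4.17, 3.85, 3.70, 3.99 and 3.77 on the D7 arrays and 3.73, 3.88, 4.05, 4.02 and 3.79 on the Chronic arrays. All pilocarpine arrays were below Control, with D3 the lowest group. In the fit the log2 fold change was -0.79 ± 0.12 at D3 (adjusted p = 0.000173), -0.48 ± 0.12 at D7 (adjusted p = 0.0104) and -0.48 ± 0.12 in Chronic (adjusted p = 0.0119), and the last 2 calls were lost without Control replicate 47 (adjusted p = 0.0562 and 0.0621) and under quantile normalization (0.139 and 0.145). Whether this probe reports Cacna1f in the hippocampus was not tested. Cacna1d had estimates of 0.51 ± 0.36, 0.54 ± 0.36 and 0.37 ± 0.36 on a probe flagged G on 13 arrays, 1 of them in Control.

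Of the T-type genes, Cacna1g fell at D3 and D7. It read 2.22, 1.98 and 1.82 on the Control arrays, 1.29, 1.76, 1.42, 1.69 and 1.49 on the D3 arrays, 1.48, 1.55, 1.16, 1.70 and 1.61 on the D7 arrays and 1.97, 1.93, 1.65, 1.71 and 2.13 on the Chronic arrays. D3 and D7 were below Control on every array, while the Chronic arrays lay between 1.65 and 2.13 and overlapped with Control. Relative to Control the estimated log2 difference was -0.47 ± 0.14 at D3 (adjusted p = 0.0227), -0.50 ± 0.14 at D7 (adjusted p = 0.0212) and -0.12 ± 0.14 in Chronic (adjusted p = 0.619). Chronic exceeded D7 by 0.38 ± 0.12, with an adjusted p of 0.288. The calls were lost without Control replicate 26 (adjusted p = 0.140 at D3 and 0.125 at D7) or 36 (0.0620 and 0.0638), that at D3 also without D3 replicate 11 (0.0556), and that at D7 under quantile normalization (0.0677) and 75th percentile scaling (0.0607). The second Cacna1g probe, flagged G on 17 arrays, gave -0.50 ± 0.21 at D3 (adjusted p = 0.0948).

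Cacna1h, the T-type gene that has been tied to burst firing of pyramidal cells after SE, read 2.48, 2.67 and 2.45 on the Control arrays, 1.90, 2.34, 2.14, 2.27 and 2.49 on the D3 arrays, 1.71, 2.38, 1.51, 2.57 and 1.78 on the D7 arrays and 2.51, 2.13, 2.43, 2.25 and 2.20 on the Chronic arrays. Every group overlapped with Control, and D7 ran from 1.51 to 2.57. Its log2 fold changes of -0.31 ± 0.19, -0.55 ± 0.19 and -0.23 ± 0.19 had adjusted p of 0.277, 0.0550 and 0.464. Cacna1i, the remaining T-type gene, had -0.11, -0.36 and -0.33 on a probe flagged G on 12 arrays.

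Of the 3 alpha2delta genes measured, 2 fell at D3 and D7 and none in Chronic, beside 16.5%, 15.5% and 12.7% of all genes. Cacna2d1, the binding site of gabapentin and pregabalin, read 4.69, 4.64 and 4.79 on the Control arrays, 4.19, 4.30, 4.25, 4.13 and 4.31 on the D3 arrays, 4.32, 4.48, 3.59, 4.42 and 4.22 on the D7 arrays and 4.15, 4.33, 4.33, 4.53 and 4.57 on the Chronic arrays. All 15 pilocarpine arrays were below Control, and Chronic replicate 45 (4.57) was the nearest to it. The fitted log2 difference from Control was -0.47 ± 0.15 at D3 (adjusted p = 0.0301), -0.50 ± 0.15 at D7 (adjusted p = 0.0280) and -0.32 ± 0.15 in Chronic (adjusted p = 0.160). Both calls were lost without any single Control array (adjusted p from 0.0645 to 0.102) and under quantile normalization (0.241 and 0.193), and that at D3 also without D3 replicate 11 (0.0541) or 14 (0.0615), and that at D7 under 75th percentile scaling (0.0537). The second Cacna2d1 probe gave -0.36 ± 0.21 at D3 (adjusted p = 0.241) and -0.64 ± 0.21 at D7 (adjusted p = 0.0425).

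Cacna2d3 gave 4.46, 4.64 and 4.27 on the Control arrays, 4.0012, 3.71, 4.13 and 3.66 on the D3 arrays, 3.87, 3.97, 3.29, 3.68 and 3.78 on the D7 arrays and 4.04, 4.25, 4.01, 4.01 and 3.94 on the Chronic arrays, with D3 replicate 14 left out of the fit, since its spot was flagged neither G nor L. No array of a pilocarpine group overlapped with Control. Against Control the log2 fold change was -0.58 ± 0.15 at D3 (adjusted p = 0.0101), -0.74 ± 0.14 at D7 (adjusted p = 0.00286) and -0.41 ± 0.14 in Chronic (adjusted p = 0.0659). The D3 call was lost without Control replicate 36 (adjusted p = 0.0648) and under quantile normalization (0.0828). The other probe of Cacna2d3 was also lower, at -0.49 ± 0.14 at D3 (adjusted p = 0.0162) and -0.59 ± 0.14 at D7 (adjusted p = 0.00800). Cacna2d2, on a probe flagged G on 11 arrays, had less certain estimates of -0.66 ± 0.28, -0.73 ± 0.28 and -0.50 ± 0.28, none of which passed.

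All 4 beta subunit genes, whose cytoplasmic products chaperone the pore to the membrane, were lower in estimate at each stage. Of them, 2 were called at each stage, beside 16.5%, 15.5% and 12.7% of all genes. Cacnb1 read 4.69, 4.55 and 4.79 on the Control arrays, 3.79, 3.81, 4.04, 3.81 and 3.85 on the D3 arrays, 4.17, 4.0041, 3.47, 4.21 and 4.19 on the D7 arrays and 3.88, 4.0995, 4.26, 4.20 and 4.07 on the Chronic arrays. Each pilocarpine array was below each Control array, and the mean signal stood at 56.7%, 62.9% and 67.1% of Control at the successive stages. The log2 fold changes were -0.82 ± 0.14 (adjusted p = 0.000511), -0.67 ± 0.14 (adjusted p = 0.00408) and -0.58 ± 0.14 (adjusted p = 0.0113). These calls were kept without any single array, and quantile normalization ended that in Chronic (adjusted p = 0.0809). A dimmer second probe of Cacnb1 gave -0.23 ± 0.25, -0.23 ± 0.25 and -0.05 ± 0.25 and was not called.

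Cacnb4, the beta gene mutated in the epileptic lethargic mouse, read 2.52, 2.41 and 2.28 on the Control arrays, 1.81, 2.03, 1.93, 1.76 and 1.54 on the D3 arrays, 2.32, 2.01, 1.38, 2.19 and 1.87 on the D7 arrays and 1.24, 1.95, 1.67, 1.79 and 2.07 on the Chronic arrays. D3 and Chronic lay below Control, and D7 replicate 31 (2.32) overlapped with it. Log2 fold changes were -0.59 ± 0.19 at D3 (adjusted p = 0.0288), -0.45 ± 0.19 at D7 (adjusted p = 0.102) and -0.66 ± 0.19 in Chronic (adjusted p = 0.0244). The D3 call was lost without D3 replicate 14 (0.0522) or 15 (0.0696) or Control replicate 26 (0.115) or 36 (0.0849), the Chronic call without Chronic replicate 41 (0.0587) or Control replicate 26 (0.106) or 36 (0.0823), and both under quantile normalization (0.0516 and 0.0704, all adjusted p). The D3 call was also lost with the mean of the gene's probes. A dimmer second Cacnb4 probe, flagged G on 18 arrays, gave -0.31 ± 0.16, -0.21 ± 0.16 and -0.32 ± 0.16 and was not called (limma adjusted p = 0.179, 0.399 and 0.202).

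Cacnb3 was called at D7 alone, with values of 4.28, 4.36 and 4.17 on the Control arrays, 3.66, 3.69, 3.85, 3.91 and 3.99 on the D3 arrays, 3.65, 4.12, 2.92, 3.94 and 3.76 on the D7 arrays and 3.84, 3.67, 3.72, 3.98 and 3.94 on the Chronic arrays. All pilocarpine arrays lay below Control, and D7 replicate 33 (2.92) was far below the others. Its log2 difference from Control was -0.45 ± 0.18 at D3 (adjusted p = 0.0767), -0.59 ± 0.18 at D7 (adjusted p = 0.0272) and -0.44 ± 0.18 in Chronic (adjusted p = 0.102), and the call was lost without Control replicate 26 (adjusted p = 0.0845) or 36 (0.105) and under quantile normalization (0.135). Cacnb2 had -0.29, -0.42 and -0.34 and was not called.

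Of the 6 gamma genes measured, Cacng5 fell at D3 (-0.45 ± 0.15, adjusted p = 0.0340) and Cacng6 at D7 (-0.45 ± 0.15, adjusted p = 0.0460), the latter with D3 replicate 15 left out for its flag. This 1 of 6 is close to the share of all genes called lower, 16.5% at D3 and 15.5% at D7. Neither call was kept under 75th percentile scaling or without Control replicate 26 or 36, and that of Cacng6 was also lost under quantile normalization and without Control replicate 47. Cacng8, which traffics AMPA receptors in the hippocampus rather than calcium channels, read 1.93, 1.95 and 2.07 on the Control arrays, 1.25, 1.79, 1.96, 1.89 and 2.11 on the D3 arrays, 1.44, 2.10, 1.31, 2.18 and 1.42 on the D7 arrays and 1.37, 1.17, 1.57, 1.78 and 2.01 on the Chronic arrays. It overlapped with Control at each stage, and its estimates of -0.18 ± 0.22, -0.29 ± 0.22 and -0.40 ± 0.22 did not pass (adjusted p = 0.613, 0.387 and 0.239). Cacng7 and Cacng1 were between -0.52 and -0.21 at all stages and were not called.

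Of the HCN genes, Hcn4 fell at D3 and D7. The gene, better known as the pacemaker channel of the heart, read 1.37, 1.12 and 1.27 on the Control arrays, 0.82, 0.72, 0.79, 0.85 and 0.66 on the D3 arrays, 1.01, 0.99, 0.76, 0.70 and 0.78 on the D7 arrays and 0.71, 1.06, 1.09, 1.01 and 0.83 on the Chronic arrays. Every pilocarpine array was below Control, and Chronic replicate 43 at 1.09 was the nearest to it. Relative to Control the estimated log2 difference was -0.49 ± 0.12 at D3 (adjusted p = 0.00562), -0.41 ± 0.12 at D7 (adjusted p = 0.0217) and -0.31 ± 0.12 in Chronic (adjusted p = 0.0745). The D7 call was lost without Control replicate 26 (adjusted p = 0.106) or 47 (0.0613), under quantile normalization (0.0606) and under 75th percentile scaling (0.0956).

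Hcn2, an HCN channel of hippocampal neurons, read -0.81, -0.61 and -0.53 on the Control arrays, -0.49, -1.09, -0.84, -1.01 and -1.23 on the D3 arrays, -1.44, -0.61, -0.90, -1.2954 and -0.77 on the D7 arrays and -1.38, -1.86, -1.02, -1.05 and -0.90 on the Chronic arrays. Chronic lay below Control and the other stages overlapped with it, and the estimates of -0.28 ± 0.24, -0.35 ± 0.24 and -0.59 ± 0.24 had adjusted p of 0.452, 0.330 and 0.102. Hcn3, on a probe flagged G on 15 arrays, had 0.43 ± 0.30, 0.52 ± 0.30 and -0.00 ± 0.30. Against the day 7 Control array alone, where Hcn3 was at -2.40, it was called higher at D7 (1.48 ± 0.36, adjusted p = 0.0425), whereas the other Control arrays read -0.78 and -1.13.

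No member was called by limma between any 2 of the pilocarpine stages, where 0.885% of all probes were called between D7 and D3, 2.72% between Chronic and D3 and 0.178% between Chronic and D7. At an unadjusted p under 0.05 limma gave 1 higher and 1 lower member at D7 against D3, beside 6.68% and 6.0% of all probes. Chronic against D3 gave 5 higher and 1 lower, beside 8.3% and 8.41%, and Chronic against D7 gave 3 higher and 0 lower, beside 4.43% and 5.66%. With the methods' t-test no member passed after Benjamini-Hochberg adjustment, where 0.124%, 1.56% and 0.0% of all probes did. At an unadjusted p the t-test gave 1 higher and 0 lower, 6 higher and 1 lower, and 3 higher and 0 lower, and the shares of all probes are not given here. Members called at 1 stage and not at another are therefore not shown to differ between them.

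The number called depended on how arrays were scaled, and the members' share was above that of all probes each time. Under 75th percentile scaling 13, 8 and 7 members were lower at D3, D7 and Chronic, against 11.8%, 6.04% and 5.18% of all probes. Under quantile normalization there were 8, 5 and 4, against 8.62%, 4.58% and 3.71%, and every member called under either was also called under the authors' scaling. Among the 37 members flagged G on at least 3 arrays, when only such probes were tested, 17, 16 and 11 were lower, against 20.3%, 17.6% and 14.6%. Calls over all probes were 35.7%, 34.3% and 33.2% higher rather than lower under the authors' scaling, 43.3%, 56.3% and 54.7% under 75th percentile scaling and 49.7%, 54.8% and 53.8% under quantile normalization. The 75th percentile moved the median of all probes by 0.11 at D7 and in Chronic. Relative to that median the members' median was -0.30, -0.35 and -0.25 under either scaling by 1 constant and -0.21, -0.28 and -0.20 under quantile normalization. Since 1 constant shifts all probes of an array alike, the sameness under either such scaling was fixed in advance.

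**Figure D3:**
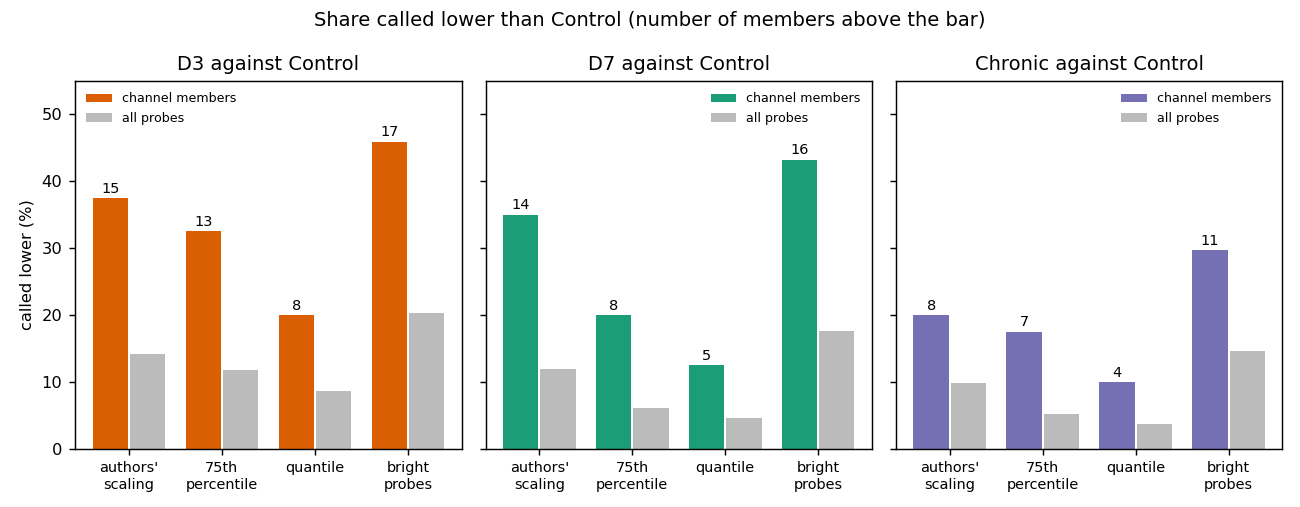
Percent of channel members (colored bars, with their number above) and of all tested probes (grey bars) called lower than Control (y axis) at D3, D7 and in Chronic, under the authors' scaling, 75th percentile scaling, quantile normalization and with bright probes alone (flagged G on at least 3 arrays). The colored bar is above the grey one in each pair, from 15 members against 14.2% at D3 to 4 members against 3.71% in Chronic under quantile normalization.

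Arrays differed in how far the channel genes were shifted as a whole. The mean deviation from the Control mean over the 34 members flagged G on at least 15 arrays lay between -0.49 and -0.30 at D3, between -0.74 and -0.20 at D7 and between -0.54 and -0.27 in Chronic, while the 3 Control arrays spanned -0.02 to 0.02. The lowest array was replicate 11 at D3, replicate 33 at D7 and replicate 41 in Chronic. Without D7 replicate 33, 11 members were called at D7 and the median of the 40 members was -0.35. The share of all probes called in that fit is not given here.

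Many markers of neurons were also lower than in Control. Of 18 neuronal markers measured of 24 listed (general, excitatory and interneuron lists together), 12 fell at D3, 9 at D7 and 8 in Chronic. None was called higher than Control, and the medians of the 18 markers were -0.67, -0.47 and -0.58. Over all genes 16.5%, 15.5% and 12.7% were called lower at D3, D7 and Chronic. The mean deviation of these markers from Control ran from -0.74 to -0.51 over the D3 arrays, from -0.86 to -0.18 over the D7 arrays and from -0.71 to -0.36 over the Chronic arrays, against -0.07 to 0.08 on the Control arrays. The arrays lowest in channel genes were also lowest in neuronal markers, at -0.74 for D3 replicate 11, -0.86 for D7 replicate 33 and -0.71 for Chronic replicate 41. Among the markers, Stmn2 fell by 0.82, 0.68 and 0.94 on the log2 scale and Nefm by 1.26, 0.99 and 0.83, both at all stages. Other markers did not fall, such as Neurod2 (0.11, -0.06 and 0.32) and Gad2 (0.12, -0.04 and -0.16), which were not called. Prox1 fell at D3 (-0.76) and was called higher in Chronic than at D3 and at D7. The Snap25 probe was flagged G on 1 array only, and Rbfox3, Syt1, Tubb3 and Map2 were not measured by a named probe. The part of the neuronal markers in the result was not tested.

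Markers of microglia and macrophages rose at the same time, 10 of 11 at both D3 and D7 and 9 in Chronic, and their mean deviations at the successive stages were 1.59 to 1.98, 0.99 to 2.56 and 1.06 to 1.78 against -0.16 to 0.10 on the Control arrays. Of 8 astrocyte markers 5, 3 and 2 rose and 1 (S100b) fell at D3 alone, with Gfap up by 2.15, 1.91 and 1.75. In the oligodendrocyte list 1 of 11 rose (Sox10, at D3) and 1 fell (Olig1, at all stages). In the endothelial list Flt1 fell at all stages and Vwf rose at D3, of 4 measured, and of 6 choroid plexus markers Ttr fell at D7 alone. Over all genes 11.8%, 8.04% and 6.28% were called higher at D3, D7 and Chronic, and 16.5%, 15.5% and 12.7% lower. The part of these cells in the channel values was not tested.

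**Figure D4:**
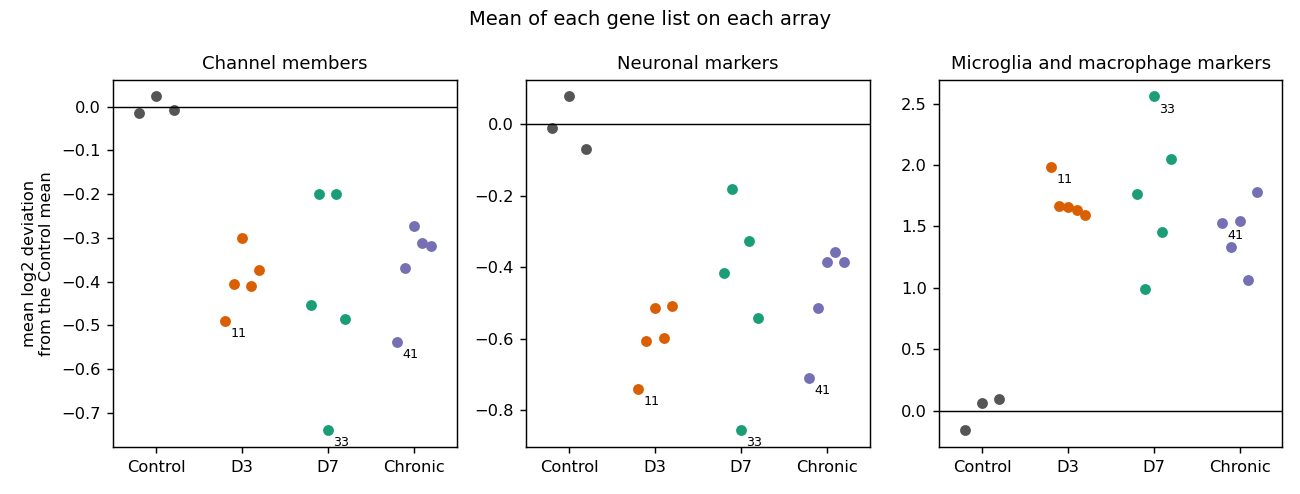
Mean log2 deviation from the Control mean (y axis) on every array of each group (x axis) for the 34 channel members flagged G on at least 15 arrays, for 18 neuronal markers and for 11 microglia and macrophage markers; each point is 1 array, and the numbers name the array with the lowest channel mean of each stage. D7 replicate 33 is the lowest array in the first 2 panels (-0.74 and -0.86) and the highest in the last (2.56).

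Proteins that bind or regulate these channels were examined as a separate list of 29 genes, of which 22 were measured. Of these, 7 were called lower at both D3 and D7 and 5 in Chronic, while none was called higher. Over all genes 16.5%, 15.5% and 12.7% were called lower at D3, D7 and Chronic. Some estimates were above 0 without a call, such as Gem (1.09, 0.33 and 0.81) and Rem2 (0.26, 0.03 and 0.87). Calmodulin is the calcium sensor of sodium and calcium channels, and of its genes Calm3 fell by 0.84 and 0.71 at D3 and D7 and Calm2 by 0.67, 0.60 and 0.42 at D3, D7 and Chronic on the log2 scale. Cabp1, a calmodulin-like regulator of calcium channels, fell by 0.75, 0.58 and 0.57, and Rims1, an active zone scaffold that binds them, by 0.84, 0.69 and 0.75. Fgf12, which binds the tail of sodium channels, fell by 0.84 at D3 and 0.66 at D7, and Unc80, a subunit of the sodium leak channel complex, by 0.65 and 0.64. Nalcn, of the same complex, was at -0.01, 0.05 and 0.10 and was not called. Pex5l (TRIP8b), the auxiliary subunit of HCN channels, fell by 0.65 in Chronic (adjusted p = 0.0449). None of the 4 genes measured of the axon initial segment scaffold was called, with Ank3 at -0.23, -0.20 and -0.16 and Nrcam at -0.44, -0.35 and -0.55.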

How the data were processed

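RNA of 18 rat hippocampi was measured on one-color arrays. The authors scanned the arrays, subtracted the local background, divided each array by 1 constant and deposited raw and normalized intensity values with a flag per spot (G, L or rejected). Spots flagged neither G nor L (0.699%) were left out here, as in the study's methods. Normalized intensity was floored per array at the 1st percentile and taken as log2. Probes were named by the platform annotation or their RefSeq accession (16945 of 33849), and the brightest probe stood for a gene, as the highest mean over all arrays. The annotation was linked to probes by their values on all 18 arrays. Of the linked probes, 80.9% had the same accession in both, and whether the others name another gene was not tested. All 18 arrays were fitted as 4 groups with limma 3.58.1 (lmFit, eBayes with trend; R 4.3.3), with Benjamini-Hochberg adjustment over 33800 probes. The spread is that between rats of a group, and the number of arrays limits the precision. Files give no slide or scan, so no batch could be tested.

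Members with an adjusted p under 0.05 in any comparison (the 15 smallest) and further subunits of known importance in hippocampus, 20 in all, were described in full, and some further genes are not reported here. Members and lists were chosen with earlier results of these data known. Alternatives were quantile normalization, 75th percentile scaling, a floor at the 5th percentile, a filter on dim probes, the mean of a gene's probes, no trend, the time-matched Control array alone, the methods' t-test and leaving out each array. The fit was also tested on simulated arrays, whose means and spreads were taken from the fit of the real arrays.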

Additional observations from a re-analysis of the deposited data

Results flagged for a closer look

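In 5 of 63 groups of values, those of the 20 genes described in full and of the mean of the members flagged G on at least 15 arrays, 1 array stood apart from the other 4 by more than Dixon's limit of 0.71 of the range, where chance gives about 1 in 20 groups. D7 replicate 33 was the low array for a pair of genes, with a log2 intensity of 3.59 for Cacna2d1 (next lowest 4.22) and 3.47 for Cacnb1 (next lowest 4.004). Chronic replicate 41 was low for Cacna1a, at 0.30 against a next lowest of 0.85. At D3 the outlying arrays were high, replicate 12 for Scn3a at 2.83 (next 2.37) and replicate 13 for Cacnb1 at 4.04 (next 3.85). D7 replicate 33 and Chronic replicate 41 also had the lowest mean of channel genes and of neuronal markers in their groups.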

How the results depend on the processing

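No paired analysis was possible because replicate numbers differ between all groups. Normexp on foreground and background signals and a slide or scan block were not run, since background had been subtracted and no slide is named. Quantile normalization left 8, 5 and 4 members lower at D3, D7 and Chronic and a D3 median of -0.27, and 75th percentile scaling left 8 at D7 and a Chronic median of -0.22, and each gave 1 member higher in Chronic than at D3 (Scn4b). Against the time-matched Control array alone, the members' median was -0.34, -0.41 and -0.31 at D3, D7 and Chronic, and Hcn3 stood 1.48 above it at D7. With the methods' t-test at an unadjusted p under 0.05, 24, 15 and 17 members were lower at D3, D7 and Chronic, and 1 was higher at D3. After Benjamini-Hochberg adjustment 0 were lower at D7 and 4 in Chronic. Between stages the unadjusted t-test gave 1 higher at D7 and 1 lower and 6 higher in Chronic against D3, and 3 higher in Chronic against D7. Shares of all probes for these unadjusted lower calls and for those between stages are not given here. The mean of all probes gave 1 member lower by at least 2-fold at D3. The cause was not tested.

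Leaving out 1 array at a time gave 4 to 15 members lower at D3, 7 to 18 at D7 (0 to 2 by at least 2-fold) and 3 to 11 in Chronic. Without Control replicate 26 there were 9, 7 and 5, without replicate 36 there were 4, 7 and 3, and without replicate 47 there were 12, 9 and 7. Shares of all probes called in these fits are not given here. Directions turned for Scn8a with the mean of its probes (0.32, 0.35 and 0.14), for Scn4b in Chronic under quantile normalization (0.057) and over single arrays left out (-0.24 to 0.030), and for Cacna1g in Chronic against its time-matched Control (0.064). Of 30 calls of the genes described in full, 14 were kept under quantile normalization, 26 under 75th percentile scaling, 30 with a higher floor or only bright probes, 28 without the trend, 25 with the mean of probes, 3 with the time-matched Control and 10 without each single array. With the methods' t-test 27 of the 30 calls were kept at an unadjusted p and 12 after Benjamini-Hochberg adjustment. Low signal limits Cacna1s and Cacng4.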

Other observations

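Beyond the 40 brightest probes, 17 members had further probes, 19 in all, and 16, 16 and 15 of them had the same direction as the brightest one at D3, D7 and Chronic. Of the 11 flagged G on at least 15 arrays, 11, 11 and 10 did, and 4, 3 and 1 of them were called lower. A second probe of Scn2b fell in Chronic (-0.58 ± 0.18, adjusted p = 0.0344 by limma), where the brightest one gave -0.49.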
